A study of Rattus norvegicus with 59 samples.

Results

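The genes described here encode the proteins that carry, dock and fuse membrane vesicles at synapses and elsewhere in the cell: synaptotagmins, syntaxins, vesicle-associated membrane proteins (Vamp), the SNAP and SV2 families, numbered Rab GTPases, the synapsins Syn1 and Syn2, synaptophysin (Syp), the complexins Cplx1 and Cplx2, and Nsf. Members were all probe sets (groups of oligonucleotides on the array that read 1 transcript) whose single gene symbol begins with Syt, Stx, Vamp, Snap, Sv2 or Rab followed by a digit, plus the 6 genes named last. This gave 100 probe sets of 70 genes, out of 8740 on the array other than controls. Of these, 78 probe sets of 56 genes were bright enough to be tested, and 14 genes lay below the filter (Rab27a, Rab29, Rab2a, Rab38, Rab3c, Snap23, Snap29, Stx3, Stxbp2, Syt10, Syt12, Syt2, Syt7 and Syt9). Some members share only a prefix with the family. Snap91 is a clathrin assembly protein, Stxbp5 (tomosyn) and Stxbp2 bind syntaxins, and Rab11fip5 and Rab3ip bind Rab proteins.

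Total RNA came from 5 brain regions of adult male rats (amygdala, hippocampus, nucleus accumbens, striatum and frontal cortex). The rats belonged to a pair of selectively bred lines, the inbred alcohol-preferring line iP (iP5C in the design text) and the inbred non-preferring line iNP (iNP1). All rats were housed in pairs and accustomed to handling before the tissue was taken. Each array read 1 region of 1 rat, with 6 rats of each line in every region except cortex, where 5 iP rats were measured, for 59 arrays. Each line is a single inbred strain, so a difference between the lines is a difference between these strains. The title and the genotype label gave the line; the source name reads iNP for every array and was not used. The study's question, from its design text, was how expression in these regions differs between the lines.

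Release of transmitter begins when a Rab GTPase such as Rab3 brings a filled vesicle to the membrane. The vesicle SNARE (Vamp1 or Vamp2) and the target-membrane SNAREs (Stx1a and Snap25) then wind into a bundle that pulls the membranes together, held by complexin until calcium binds a synaptotagmin. Nsf takes the spent SNARE bundles apart, synapsins tether the reserve vesicles, and the SV2 proteins and synaptophysin are membrane proteins of the vesicle itself. Other Rabs direct traffic between the Golgi apparatus, endosomes and lysosomes in every cell type.

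All values are log2 signals, where 1 unit is a 2-fold difference. Signal depends on the probes, so levels are compared between arrays and not between genes. An array from cortex of iP animal 5 stood apart: its log2 ratio of 3′ to 5′ Gapdh probe signal, a measure of RNA integrity, was 6.14, where the other arrays reached at most 0.44. On it 20 of the 78 member probe sets lay more than 2 below the median of their group, where 8.12% of all tested probe sets did. Amygdala of iP animal 1 read like cortex in several members. Its Snap25 signal was 14.10, inside the cortex range (13.75 to 14.23) and above the other 11 amygdala arrays (12.89 to 13.43). Over the 78 probe sets, 48 of 59 arrays correlated best with the median profile of their own region, taken from the other arrays. The other 11 were cortex of iP 5 and iNP 8, striatum of iP 2, 4, 5 and iNP 11, hippocampus of iNP 8 and 10, amygdala of iP 1 and iNP 7, and accumbens of iP 4. Results that rest on cortex of iP 5 or amygdala of iP 1 are given with and without both, as "without the 2 arrays". Of 8 tested genes that mark medium spiny neurons, 7 were higher in striatum and 8 in accumbens. In hippocampus 4 of its 6 markers were higher and 1 lower. The 7 amygdala markers did not single out the arrays labelled amygdala: 2 were higher and 2 lower there (median -0.06), while 4 were higher and 0 lower in cortex (median 0.47).

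**Figure D1:**
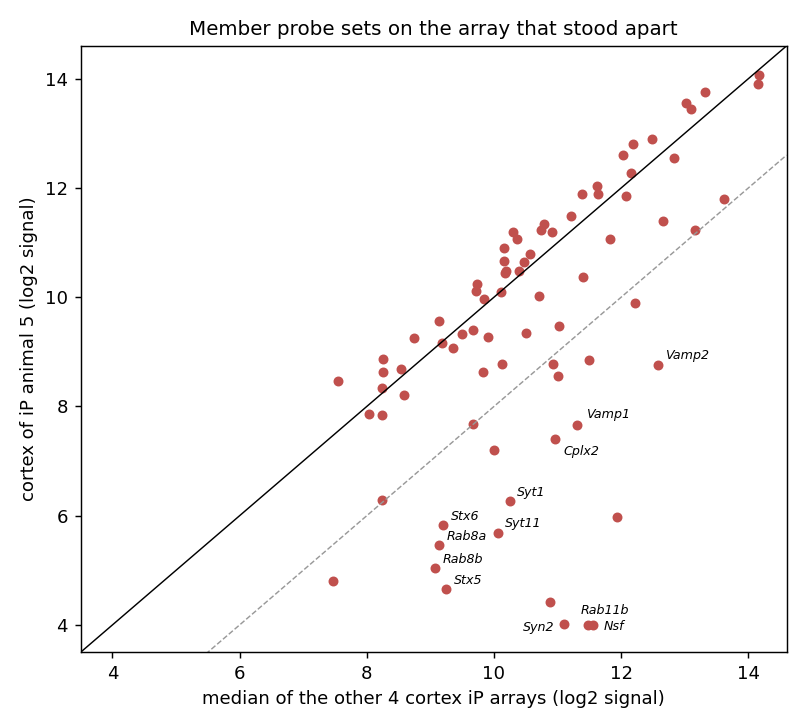
Each point is 1 of the 78 tested member probe sets; the x axis is its median log2 signal in the other 4 cortex iP arrays and the y axis its log2 signal in cortex of iP animal 5. The solid line marks equal signal and the dashed line a signal lower by 2 (log2); 20 probe sets lie below the dashed line, with Nsf and Rab11b lowest at 4.00.

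The 20 probe sets that fell away on that cortex array came from every role except the secretory Rabs. An Nsf probe set read 4.00, the floor of the scale, where the median of the other 4 cortex iP arrays was 11.55. A Rab11b probe set also read 4.00 against 11.48, and a Syn2 probe set 4.01 against 11.10. Syt1 read 6.26 against 10.25 and Cplx2 7.41 against 10.95. Other probe sets were not low: Syt8 read 8.46 against 7.54. Probe sets of 1 gene could part. One Stx1a probe set read 13.75 where the other 4 arrays lay between 13.21 and 13.35, and the other read 11.39 against a median of 12.66. The Syn2 probe set M27925_at was at 11.34, the highest cortex value of that probe set. The part of the Gapdh ratio in these losses was not tested.

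More members were called between regions than between lines. Each region was compared with the average of the remaining 4 regions, blocking on the animal. By this test 47 of the 78 member probe sets passed (limma, Benjamini-Hochberg adjusted p under 0.05) in at least 1 region, or 60.3%, against 49.7% of all 5244 probe sets tested. Taking the brightest probe set for each gene, 34 of 56 genes passed in at least 1 region. Without the 2 arrays the counts were 58 probe sets (74.4%, against 57.5% of all) and 39 genes. In these tissue pieces, fewer cells of a type and less RNA per cell cannot be told apart.

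In cortex 19 member probe sets passed, or 24.4%, where 17% of all tested did. Of these 15 were higher (7.86% of all) and 4 lower (9.19% of all). In striatum 9 passed, or 11.5%, against 13.9% of all, with 5 higher (6.27% of all) and 4 lower (7.65%), so this count is near the background. In hippocampus 21 passed (26.9%, against 23.3% of all), with 8 higher (10.8% of all) and 13 lower (12.5%). Amygdala had 30 (38.5%, against 26.1% of all), with 12 higher (13.3% of all) and 18 lower (12.8%). In accumbens 20 passed (25.6%, against 20.9% of all), with 7 higher (12.3% of all) and 13 lower (8.58%). With the 2 arrays left out the counts were 40 in amygdala (33.4% of all), 22 in cortex (22.2%), 23 in accumbens (23.6%), 24 in hippocampus (25.5%) and 11 in striatum (16.5%). By gene, cortex had 9 higher and 3 lower, striatum 3 and 3, hippocampus 7 and 9, amygdala 9 and 12, and accumbens 5 and 8. The median absolute difference in amygdala was 0.19 over the 56 genes and 0.13 over all probe sets. With all arrays, a difference of a region from the rest over 1 was reached by 1 member, Syt6 in accumbens (1.22% of all probe sets passed with a difference that large there). Syt6 was the dimmest member tested, and it passed the brightness filter only through accumbens and striatum, where it was high. Its calls in these counts, and the 1.22%, are from the fit with that filter. With no filter its accumbens difference was 1.19 (limma, adjusted p = 5.97e-06).

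The regions were also compared in 10 pairs. Cortex and striatum differed in 10 member probe sets (8.47% of all probe sets), and striatum and accumbens in 10 (14.1%). Cortex differed from hippocampus in 16 (21.5%), from amygdala in 25 (22.6%) and from accumbens in 20 (22.8%). Striatum differed from hippocampus in 13 (18.2%) and from amygdala in 24 (24.3%). Hippocampus differed from amygdala in 27 (23.2%) and from accumbens in 20 (23.6%), and amygdala from accumbens in 24 (20.5%). With all arrays, the members differed in the greatest number between hippocampus and amygdala, at 34.6% of the 78. These pair counts are not given without the 2 arrays, so the order of the pairs may depend on them.

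The amygdala count was lower with a covariate for RNA integrity. The Gapdh ratio had a median of 0.20 there and of 0.01 to 0.09 in the other regions, and all 8 myelin markers were lower in amygdala (median -0.85), while all 8 were higher in hippocampus (median 0.52). With the Gapdh ratio as a covariate and without the 2 arrays, 27 member probe sets passed in amygdala (20.4% of all probe sets), against 40 without the 2 arrays and no covariate. Of the 21 genes that passed with all arrays, 15 also passed in both of these fits. The 6 that did not were Stx5, Stx12, Vamp5, Snap91, Rab5a and Rab15. The covariate did not lower the counts everywhere. In accumbens, without the 2 arrays, 6 genes were higher and 9 lower, and with the covariate added 6 and 14. Cortex went from 12 and 3 to 11 and 3, and hippocampus from 9 and 8 to 8 and 9. Striatum had 5 and 3 in both fits. With the covariate, the share of all probe sets that passed is given here for amygdala only. The counts in the other regions therefore cannot be set against a background. The part of myelin content in the amygdala differences was not tested.

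**Figure D2:**
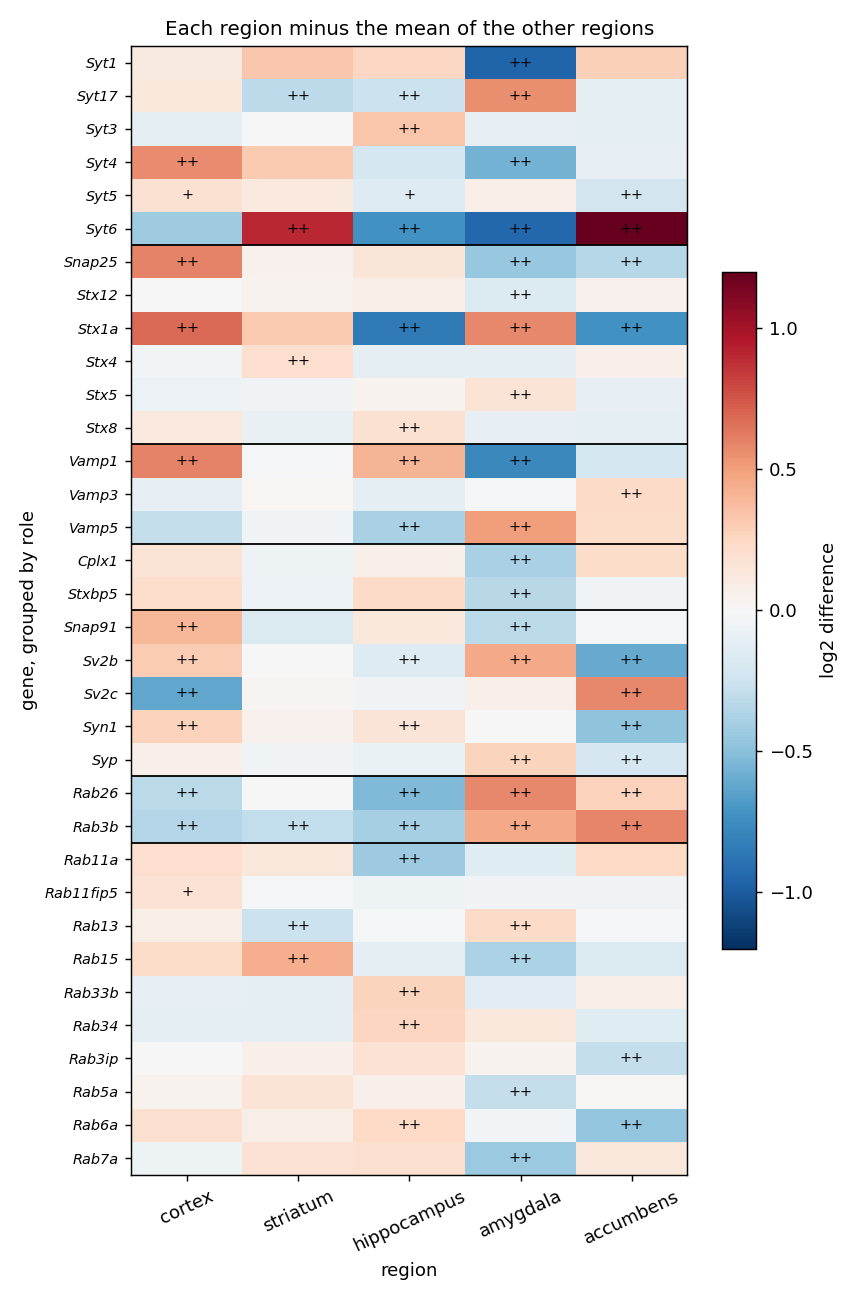
Colour shows each region's log2 signal minus the mean of the other 4 regions for the 34 genes that passed in at least 1 region (rows, grouped by role; columns, regions). One plus sign marks an adjusted p under 0.05 with all arrays. A double plus sign marks one that also passed without the 2 arrays. Syt6 has the darkest cells, at 1.19 in accumbens and -0.94 in amygdala, and its plus signs are from the fit with the brightness filter.

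Promoters of 4 genes are shown, chosen by their difference in accumbens among genes that passed there with all arrays and without the 2 arrays. Syt6 and Rab3b were the 2 highest in accumbens, and Stx1a and Sv2b the 2 lowest. Syt6 was high in accumbens and striatum, Rab3b in accumbens and amygdala, Stx1a in cortex and amygdala, and Sv2b in amygdala and cortex. Each is the 250 bases before the annotated start in RefSeq (assembly GRCr8), written 5′ to 3′ on the gene's strand, with the GC box GGGCGG in capitals. They lie at chr2:193781226-193781475 (plus strand, Syt6), chr5:128858841-128859090 (plus strand, Rab3b), chr12:27306472-27306721 (minus strand, Stx1a) and chr1:138562259-138562508 (minus strand, Sv2b).
Syt6: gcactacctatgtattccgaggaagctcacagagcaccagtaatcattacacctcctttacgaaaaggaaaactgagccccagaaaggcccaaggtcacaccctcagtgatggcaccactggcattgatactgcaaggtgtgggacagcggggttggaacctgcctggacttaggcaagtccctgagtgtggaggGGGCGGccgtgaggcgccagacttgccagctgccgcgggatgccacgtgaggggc
Rab3b: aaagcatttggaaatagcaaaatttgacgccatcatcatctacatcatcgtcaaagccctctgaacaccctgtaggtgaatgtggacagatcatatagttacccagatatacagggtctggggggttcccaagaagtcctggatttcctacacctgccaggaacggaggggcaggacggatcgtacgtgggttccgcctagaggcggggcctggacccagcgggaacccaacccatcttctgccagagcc
Stx1a: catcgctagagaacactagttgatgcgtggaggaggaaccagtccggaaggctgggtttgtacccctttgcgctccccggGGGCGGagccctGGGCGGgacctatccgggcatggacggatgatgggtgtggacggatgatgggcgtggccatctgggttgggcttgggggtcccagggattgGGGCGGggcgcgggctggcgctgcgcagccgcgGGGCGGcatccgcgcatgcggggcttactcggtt
Sv2b: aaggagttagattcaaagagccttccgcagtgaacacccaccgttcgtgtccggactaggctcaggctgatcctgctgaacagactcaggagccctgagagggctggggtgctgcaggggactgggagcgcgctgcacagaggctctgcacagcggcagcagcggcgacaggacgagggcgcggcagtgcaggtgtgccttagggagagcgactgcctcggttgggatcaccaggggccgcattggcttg
A GC box, searched on both strands, was found once before Syt6 and 4 times before Stx1a, and not in the Rab3b or Sv2b window. Over the 59 member genes with a listed promoter, 43 held a GC box (72.9%), against 32.4% of 27457 listed promoters. The TATA box TATAAA was in 0 of 59, against 13.1% of all. The cyclic AMP response element TGACGTCA was in 2 of 59 (Syn1 and Vamp1; 3.39%), against 1.7% of all. A match describes the sequence only, and no motif contains another.

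Synaptotagmins are the calcium-binding and related vesicle proteins, and 8 of 13 could be tested. Syt6 was just inside the brightness filter, with a mean of 7.67 over all arrays, where the brightest probe set left out averaged 7.65 and the brightest member left out, a Rab4b probe set, 7.63. Its medians in cortex, hippocampus and amygdala were below that limit, so it passed only through accumbens and striatum. Its p-values for a region against the other regions are therefore taken from the fit with no filter. The Syt6 p-values for pairs of regions and for the lines are from the fit with the filter. Over the 12 arrays of accumbens its signal was 8.20 at the lowest, 8.65 at the median and 9.02 at the highest, and over striatum 8.04, 8.39 and 8.79. Cortex ran from 4.81 through a median of 7.50 to 7.88, hippocampus from 6.01 through 7.16 to 7.93, and amygdala from 5.13 through 7.02 to 7.81. Every accumbens and striatum array was therefore above every array of the other 3 regions. Accumbens was higher than the mean of the other regions by 1.19 ± 0.19 (SE; adjusted p = 5.97e-06 with no filter) and striatum by 0.91 ± 0.19 (0.0008), while amygdala was lower by -0.94 ± 0.19 (0.000282). Accumbens and striatum did not differ from each other beyond their spread (0.23, adjusted p = 0.642), nor did hippocampus and amygdala (0.17, 0.69). The medium spiny neuron markers were also high in both, with region medians of their mean signal of 11.53 in accumbens, 11.65 in striatum, 9.93 in amygdala, 9.07 in cortex and 8.96 in hippocampus; their part in the Syt6 difference was not tested.

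The other synaptotagmins moved less. Syt17 was highest in amygdala, where 12 arrays gave 11.93, 12.43 and 12.61 (lowest, median, highest), and lowest in striatum, at 11.33, 11.64 and 11.98. The amygdala difference was 0.56 ± 0.06 (adjusted p = 5.7e-10) and remained at 0.52 with the Gapdh covariate. Syt4, which is made in response to activity and calcium, was highest in cortex (mean 11.31 ± 0.36, SD, n = 11) and lowest in amygdala (10.42 ± 0.55, n = 12), with differences from the other regions of 0.57 ± 0.12 and -0.57 ± 0.11 (adjusted p = 0.000337 and 0.000139). Syt1, the main calcium sensor for fast release, was lower in amygdala by -0.96 ± 0.23 (adjusted p = 0.00124). Amygdala ran from 7.88 through 9.19 to 10.34 and accumbens from 9.27 through 10.22 to 10.48, so these ranges overlapped. The Syt1 difference was -1.14 without the 2 arrays, and with the Gapdh covariate added it was -0.63 (0.00206). Syt3 was higher in hippocampus by 0.33 ± 0.08 (0.00139). Syt5 was lower in accumbens by -0.22 ± 0.06 (0.00406); its calls in cortex (0.18) and hippocampus (-0.16) were lost without the 2 arrays, at adjusted p of 0.0617 and 0.0611. Syt8 and Syt11 passed in no region.

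Of the target-membrane SNAREs, 8 of 11 genes could be tested. Stx1a, the syntaxin of the presynaptic membrane, split the regions into a higher and a lower set. Its median signal was 13.31 in cortex (range 11.48 to 13.75), 13.11 in amygdala (12.76 to 13.35) and 12.94 in striatum (12.58 to 13.15), but 12.06 in accumbens (11.78 to 12.35) and 11.80 in hippocampus (11.57 to 12.82). The low cortex value was a single array, iNP 8, at 11.48, where the other 5 iNP arrays lay between 13.25 and 13.51. A second Stx1a probe set, D12519_s_at, read 12.80 on that same array, within the range of the other iNP arrays. Stx1a was higher in cortex by 0.68 ± 0.12 (adjusted p = 2.56e-05) and in amygdala by 0.58 ± 0.12 (0.000152). It was lower in hippocampus by -0.85 ± 0.12 (7.48e-08) and in accumbens by -0.72 ± 0.12 (3.54e-06). The second probe set gave 0.62, 0.32, -0.63 and -0.65 in the same 4 regions, each past the threshold. Neighbours within each set did not differ beyond their spread (cortex over amygdala 0.09, amygdala over striatum 0.21, accumbens over hippocampus 0.10; adjusted p of 0.735, 0.324 and 0.693), while striatum exceeded accumbens by 0.83 ± 0.15 (2.77e-05). By the second probe set, cortex exceeded amygdala by 0.38 without the 2 arrays (0.00155).

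Snap25, the partner of Stx1a in the bundle, was highest in cortex, with a median of 14.07 (13.75 to 14.23), and lowest in amygdala, at 13.16 (12.89 to 14.10), and accumbens, at 13.32 (12.67 to 13.67). The highest amygdala value was iP animal 1. Cortex was higher by 0.60 ± 0.10 (adjusted p = 7.05e-06), amygdala lower by -0.45 ± 0.10 (0.000238) and accumbens lower by -0.34 ± 0.10 (0.00604). A further pair of Snap25 probe sets gave the same signs and calls. The fourth, U56261_s_at, did not follow them. It was lowest in hippocampus (-0.88 ± 0.15, adjusted p = 3.51e-06) and highest in accumbens (0.54 ± 0.15, 0.00428), where the other 3 were low. Among the other syntaxins the differences that passed were small by each gene's brightest probe set. Stx8 was higher in hippocampus by 0.18, Stx4 in striatum by 0.20 and Stx5 in amygdala by 0.17. Stx12 was lower in amygdala by -0.17. The Stx5 and Stx12 calls were lost with the Gapdh covariate (adjusted p = 0.143 and 0.196). A second Stx12 probe set, AF035632_s_at, was lower there by -0.42 ± 0.09 (0.000566), or -0.24 with the covariate (0.102). Stx6 and Stx7 passed in no region with all arrays. Without the 2 arrays Stx6, a syntaxin of the Golgi and endosomes, was higher in hippocampus by 0.35 (0.00334) and lower in amygdala by -0.38 (0.00194).

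**Figure D3:**
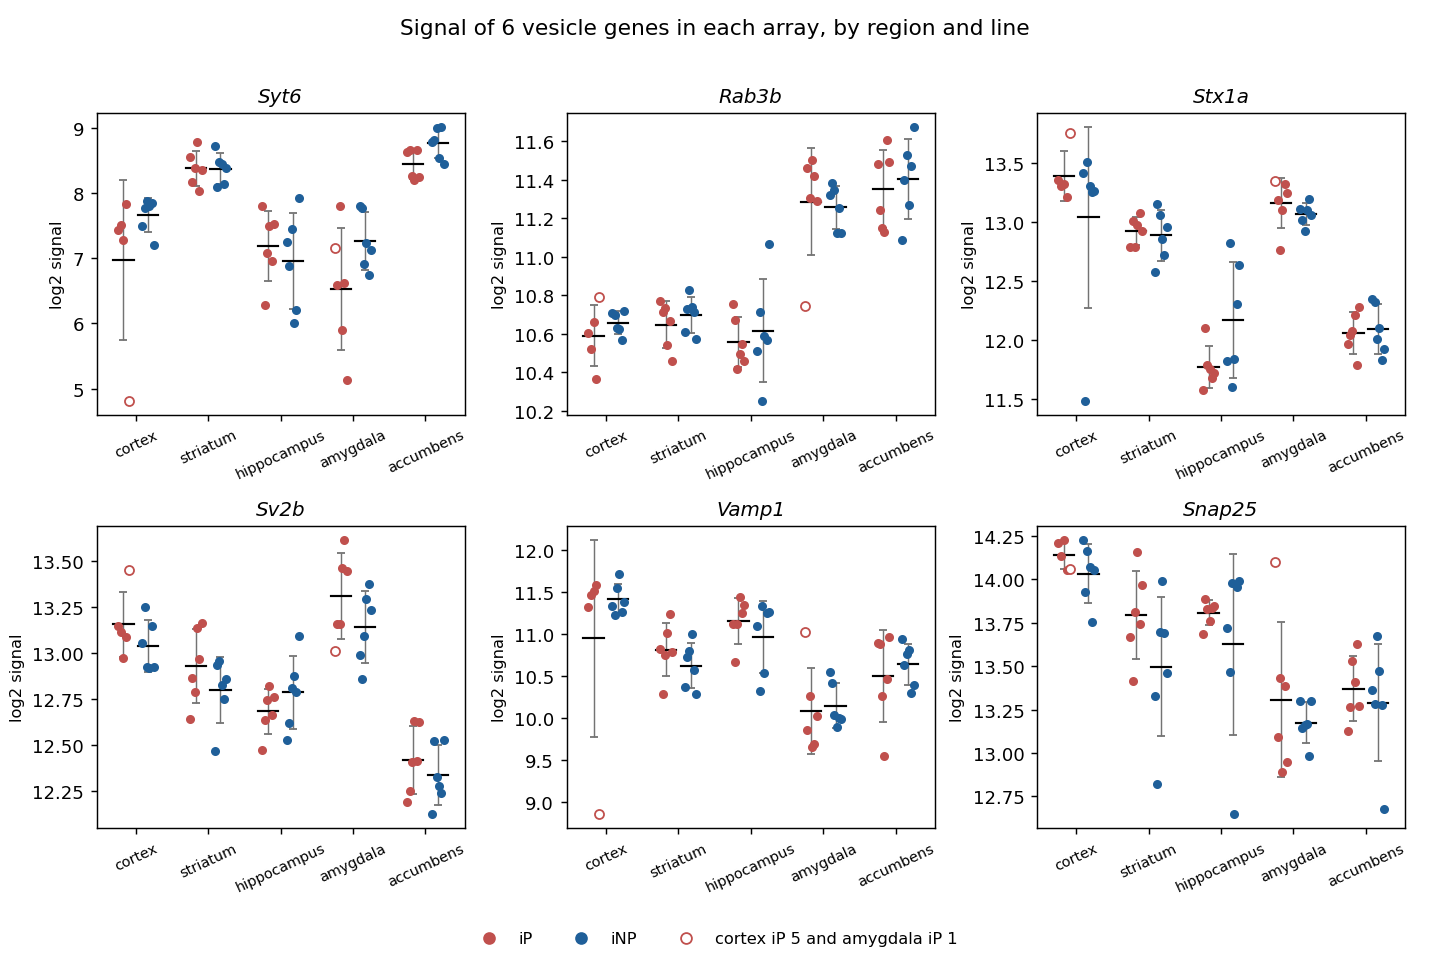
Each point is the log2 signal (y axis) of 1 array, by region (x axis) and line, for Syt6, Rab3b, Stx1a, Sv2b, Vamp1 and Snap25; black bars are means and grey bars 1 SD (n = 6, or 5 in cortex iP), and open circles are cortex of iP animal 5 and amygdala of iP animal 1. Syt6 is at 8.04 or higher in every striatum and accumbens array, and Sv2b is lowest in accumbens, at 12.12 to 12.63.

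All 4 vesicle SNARE genes were tested. Vamp1, one of the forms that pair with Stx1a and Snap25 in neurons, was highest in cortex, at 8.85, 11.39 and 11.72 (lowest, median, highest; n = 11), and lowest in amygdala, at 9.65, 10.01 and 11.02 (n = 12). The extremes toward each other were again cortex of iP 5 and amygdala of iP 1. With both left out, cortex averaged 11.44 ± 0.16 (SD) and amygdala 10.03 ± 0.28. The amygdala difference was -0.78 ± 0.15 with all arrays (adjusted p = 9.47e-05), -0.91 without the 2 arrays and -0.52 with the Gapdh covariate added (2e-05). Cortex was higher by 0.60 ± 0.16 with all arrays (0.00457) and by 0.86 without the 2. Hippocampus was also higher, by 0.41 ± 0.15 (0.0465). Vamp2, the main vesicle SNARE of the forebrain, passed in no region: its medians ran from 13.39 in hippocampus to 13.70 in amygdala. Vamp3, the form found in most cells, was higher in accumbens by 0.23 ± 0.06 (0.00325). Vamp5, described mainly in muscle, was higher in amygdala by 0.50 ± 0.14 (0.00578), a call lost with the Gapdh covariate (0.0694).

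All 4 tested genes that act on the SNARE bundle are described. Cplx1, which clamps the assembled bundle, was lower in amygdala by -0.39 ± 0.12 (adjusted p = 0.00959), and this was its only call with all arrays. Without the 2 arrays Cplx1 was lower in amygdala by -0.52 ± 0.07 (1.08e-08) and higher in cortex by 0.39 ± 0.07 (1.38e-05). Stxbp5, which competes with Vamp for syntaxin, was lower in amygdala by -0.33 ± 0.09 (0.00488). Nsf, the ATPase that recycles SNAREs, averaged 10.96 ± 2.32 (SD, n = 11) in cortex with the array at the floor and 11.65 ± 0.22 without it. Its amygdala difference was -0.37 with all arrays (adjusted p = 0.457), -0.60 without the 2 arrays (0.000698) and -0.22 with the Gapdh covariate added (0.296). Cplx2 passed in no region in any of these fits, and its values scattered widely within every region, from 7.41 to 11.37 in cortex and from 7.50 to 10.98 in accumbens. Rab14, a Rab of the Golgi and endosomes, scattered in the same arrays. The array with the lowest Cplx2 value was also the one with the lowest Rab14 value in cortex (iP 5), striatum (iP 2), amygdala (iP 5) and accumbens (iP 4), but not in hippocampus (iP 2 for Cplx2, iNP 8 for Rab14). This pairing was chosen after its values were seen.

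The 3 SV2 genes, of the vesicle membrane, differed in their regional order. Sv2b was lowest in accumbens, at 12.12, 12.37 and 12.63 (lowest, median, highest), and highest in amygdala, at 12.86, 13.20 and 13.61, with no overlap between these regions. Accumbens was lower than the others by -0.60 ± 0.05 (adjusted p = 4.45e-14) and amygdala higher by 0.45 ± 0.05 (3.08e-10). Sv2c, whose rodent expression is centred on the basal ganglia, was instead highest in accumbens, at 8.54, 9.21 and 9.39, and lowest in cortex, at 6.29, 8.28 and 8.74. It was higher in accumbens by 0.57 ± 0.12 (0.000381) and lower in cortex by -0.62 ± 0.13 (0.000248), or -0.45 without the 2 arrays. Sv2a, the form found in nearly all synapses, passed in no region with all arrays and was higher in cortex by 0.25 without the 2 arrays (0.00786). The second Sv2b probe set, L10362_at, was also lowest in accumbens (-0.55 ± 0.08) but was not called in amygdala.

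Syn1 and Syp were likewise low in accumbens. Syn1 gave 11.87, 12.14 and 12.33 there and 12.55, 12.80 and 12.93 in cortex, with no overlap. Its accumbens difference was -0.49 ± 0.05 (adjusted p = 1.67e-10) and its cortex difference 0.27 ± 0.05 (0.000102). Syp was lower in accumbens by -0.21 ± 0.05 (0.00276) and higher in amygdala by 0.27 ± 0.05 (0.000104). The brightest Syn2 probe set passed in no region with all arrays; cortex of iP 5 read 5.98 on it, where the cortex median was 11.92. Without the 2 arrays it was lower in accumbens by -0.55 ± 0.09 (7.89e-06) and higher in hippocampus by 0.35 ± 0.09 (0.00311). Another Syn2 probe set, M27925_at, was also lower in accumbens (-0.34 ± 0.07, 0.000483) but highest in amygdala (0.54 ± 0.07, 1.11e-07). Snap91, which recruits clathrin to retrieve vesicle membrane, was higher in cortex by 0.40 ± 0.10 (0.00322) and lower in amygdala by -0.33 ± 0.10 (0.0101), the latter lost with the Gapdh covariate (0.148).

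Of the 4 tested secretory Rabs, Rab3b and Rab26 differed by region in every fit made. Rab3b, a Rab3 form of synaptic and secretory vesicles, read 11.09, 11.43 and 11.68 (lowest, median, highest) in accumbens and 10.74, 11.31 and 11.50 in amygdala. Striatum gave 10.46, 10.71 and 10.83, cortex 10.37, 10.63 and 10.79, and hippocampus 10.25, 10.56 and 11.06. Every accumbens array was above every array of cortex, striatum and hippocampus, and the 1 amygdala array at their level was iP 1. Accumbens was higher by 0.59 ± 0.06 (adjusted p = 2.12e-11) and amygdala by 0.46 ± 0.06 (1.59e-08). These neighbours did not differ beyond their spread (0.11, 0.34), and striatum, cortex and hippocampus did not differ among themselves. The second Rab3b probe set passed in all 5 regions with the same signs, at 0.91 in accumbens.

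Rab26, which acts on secretory granules and in the removal of synaptic vesicles, was highest in amygdala, at 10.51, 11.07 and 11.22, then accumbens, at 10.61, 10.79 and 10.92. It was lowest in hippocampus, at 9.82, 10.17 and 10.40, and again the lowest amygdala array was iP 1. The amygdala difference was 0.58 ± 0.06 (adjusted p = 7.77e-12) and the hippocampus difference -0.53 ± 0.06 (4.89e-11). Each step of its order from amygdala to accumbens, striatum and cortex passed the test, and only cortex over hippocampus did not (0.17, 0.091). Rab3a, the main Rab of synaptic vesicles, and Rab3d passed in no region; the Rab3a medians ran from 13.00 in amygdala to 13.17 in cortex.

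Among the 21 other tested Rabs and Rab partners differences were mostly small, with 3 higher and 1 lower in hippocampus and 1 higher and 3 lower in amygdala. Rab6a, a Rab of the Golgi, was lower in accumbens by -0.47 ± 0.08 (adjusted p = 3.2e-06) and higher in hippocampus by 0.24 ± 0.08 (0.0147). Rab11a, of recycling endosomes, was lower in hippocampus by -0.43 ± 0.10 (0.00126). Rab7a, of late endosomes, was lower in amygdala by -0.44 ± 0.12 (0.00437) and by -0.49 with the Gapdh covariate (0.00123). Rab15 was higher in striatum by 0.43 ± 0.14 (0.0263). Rab5a, of early endosomes, was lower in amygdala by -0.29 ± 0.08 (0.00426) by its brightest probe set, a call lost with the Gapdh covariate (0.382), while its other probe set gave 0.18 (0.0619). Rab33b and Rab34 were higher in hippocampus by 0.26 and 0.25, Rab13 was higher in amygdala by 0.23 and lower in striatum by -0.25, and Rab3ip was lower in accumbens by -0.28. Of these, Rab34 was not called with the Gapdh covariate (0.204). Rab11fip5 was higher in cortex by 0.17, a call lost without the 2 arrays (0.0767). Some calls came from a dimmer probe set alone: Rab10 was higher in hippocampus by 0.31 (0.0163) and Rab28 lower in amygdala by -0.26 (0.00298). A Rab11b probe set, D01046_at, was lower in amygdala by -0.46 without the 2 arrays (1.14e-06), where its brightest probe set gave -0.05 (0.594).

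Other genes of the release pathway also passed by region, in both directions, but their counts were not tested against the background. Of all probe sets, 17% passed for cortex, 13.9% for striatum, 23.3% for hippocampus, 26.1% for amygdala and 20.9% for accumbens. With all arrays, Rab and SNARE partners lay under the region's share in every region. Release machinery genes lay above it for cortex, hippocampus and amygdala, and slightly under it for striatum and accumbens. Other vesicle proteins lay above it for cortex, amygdala and accumbens, and under it for striatum and hippocampus. Endocytosis genes lay above it in every region except striatum. Of 15 other genes of the release machinery, 4 were higher and 1 lower in cortex, 2 and 5 in hippocampus, 4 and 1 in amygdala, 1 and 2 in accumbens, and 0 and 2 in striatum. With the 2 arrays left out these became 7 and 2 in cortex, 2 and 7 in hippocampus, 4 and 2 in amygdala, 1 and 4 in accumbens, and 2 and 3 in striatum. Unc13c, a priming factor, was higher in amygdala by 0.80 ± 0.14 (adjusted p = 1.3e-05) and lower in hippocampus by -0.63. Cadps2, which primes dense-core vesicles, was higher in cortex by 0.62 and lower in accumbens by -0.48, and Napa, the adaptor that brings Nsf to the SNAREs, was higher in hippocampus by 0.49 and lower in amygdala by -0.39. Of 16 other vesicle proteins, 4 were higher and 3 lower in accumbens in either set of arrays, and 2 higher and 3 lower in amygdala (3 and 6 without the 2 arrays). Slc32a1, the transporter that fills vesicles with GABA, was higher in accumbens by 0.83 ± 0.06 (2.1e-15) and in striatum by 0.27, and lower in hippocampus by -0.42. Slc18a3, the vesicular acetylcholine transporter, was higher in accumbens by 0.58. Of 22 genes of vesicle endocytosis, 1 was higher and 6 lower in accumbens (1 and 8 without the 2 arrays), and 6 higher and 3 lower in hippocampus, the same counts without them. Dnm1, the dynamin that pinches off vesicles at synapses, was lower in accumbens by -0.52 ± 0.05 (1.3e-10). Of 31 Rab and SNARE partners, 2 were higher and 2 lower in cortex and 3 and 3 in amygdala, or 2 and 4 and 5 and 5 without the 2 arrays. Exoc8, of the exocyst, was lower in amygdala by -0.84 ± 0.23 (0.0041).

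Between the lines, no member passed the test. Averaged over the regions of each animal, 0 of 78 member probe sets were called, where 2.65% of all 5244 probe sets were (139). At an unadjusted p under 0.05 there were 9 members, or 11.5%, against 11.9% of all probe sets, so the members' share is that of the background. Fitted region by region, members called were also 0. Of all probe sets 0.229% were called in cortex, 0.667% in hippocampus, 0.725% in amygdala, 0.572% in accumbens and 0.839% in striatum. Members with an unadjusted p under 0.05 numbered 0, 5, 3, 3 and 3 in the same order. These are 0%, 6.41%, 3.85%, 3.85% and 3.85% of the members, against 5.26%, 7%, 8.75%, 7.06% and 8.01% of all probe sets. In a moderated F test of whether the line difference varied with region, 0 members and 0 of all probe sets passed, with 2 members at an unadjusted p under 0.05 (Stx12 and Stx5; 2.56%, against 4.61% of all).

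The member differences between lines were small and centred near 0. Of 56 genes, 24 were nominally higher and 32 nominally lower in iP, with a median of -0.02, where the median of all probe sets was -0.01. The median absolute difference was 0.06 over the members and 0.07 over all. In 50 of 56 genes the difference was under 0.25 in size, and in 47 the 95% interval lay within 0.5 of 0 on both sides. The interval was widest for genes that scatter between arrays: Rab14 was -0.57 (interval -1.08 to -0.06), and Cplx2 -0.46. Role by role, the medians ran from -0.22 for SNARE regulators, a group that holds Nsf and Cplx2, to 0.02 for target-membrane SNAREs. Without the 2 arrays the SNARE regulator median was -0.07.

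**Figure D4:**
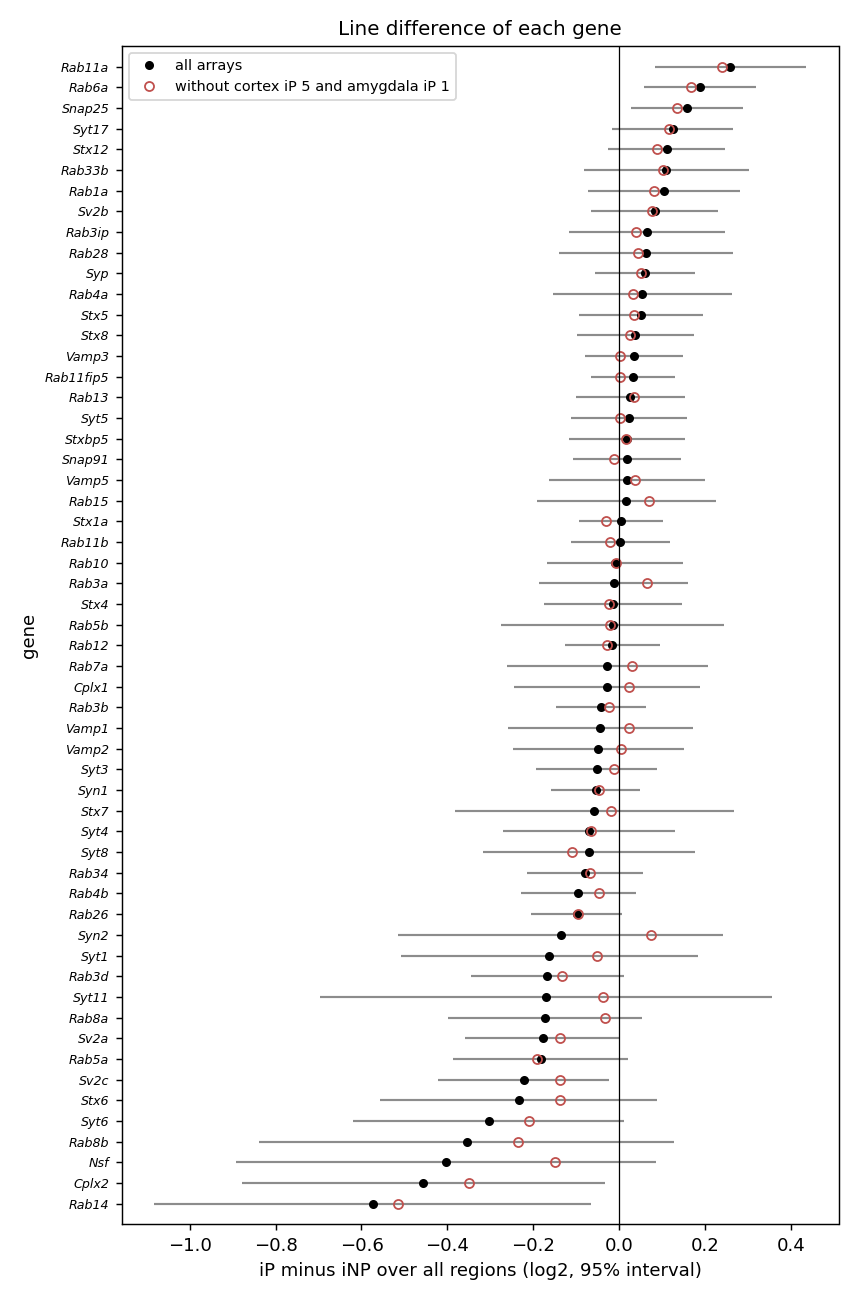
Black points are the iP minus iNP difference in log2 signal over all regions for each of the 56 genes (6 and 6 animals), with its 95% interval; open red circles are the same difference without the 2 arrays. No gene passed the test; 47 intervals lie within 0.5 of 0, and the widest belong to genes such as Rab14 (-0.57) and Nsf.

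The member nearest the threshold was the Syn2 probe set M27925_at. Its animal means were 10.68, 11.00 and 11.11 (lowest, median, highest) in iP and 10.60, 10.75 and 10.79 in iNP. The difference was 0.24 ± 0.07 (SE; adjusted p = 0.117). It passed without the 2 arrays, at 0.23 (adjusted p = 0.0399), where 3.09% of all probe sets passed. The other Syn2 probe sets gave no such difference: without the 2 arrays the brightest was 0.07 (0.72) and the third -0.03 (0.948), so the Syn2 result rests on 1 of 3 probe sets. Rab6a was the only member whose animal means did not overlap, at 12.09 to 12.43 in iP and 11.88 to 12.05 in iNP, where 2.84% of all probe sets showed no overlap. Its difference was 0.19 ± 0.06 (0.17), and it was widest in striatum (0.42 ± 0.13, 0.274). Rab11a was 0.26 ± 0.08 (0.159) by its brightest probe set alone, and its 6 iNP animals included 1 mean of 10.47, equal to the highest iP animal. Snap25 was 0.16 ± 0.06 (0.29), with iP animals between 13.55 and 13.76 and iNP animals between 13.32 and 13.73.

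In the single regions the smallest adjusted p of any member was in hippocampus, for a Rab5a probe set (rc_AA800305_at) at -0.40 ± 0.10 (0.139). The iP arrays gave 9.62, 9.78 and 9.99 and the iNP arrays 9.94, 10.20 and 10.38. The brightest Rab5a probe set gave 0.08 ± 0.15 in the same arrays, so the 2 probe sets differed. Stx12, a syntaxin of endosomes, was 0.27 ± 0.09 in hippocampus (0.43), with iP arrays from 10.90 to 11.25 and iNP arrays from 10.44 to 10.87, and its second probe set gave 0.05 (0.972). In accumbens Nsf was -0.45 ± 0.13 (0.246) by one probe set and -0.46 ± 0.19 (0.621) by the other. Its iP arrays lay between 11.26 and 11.87 and its iNP arrays between 11.68 and 12.20. In cortex Nsf was -1.65 with cortex of iP 5 (0.85) and -0.13 without it (0.998). Of the genes with wide regional differences, Syt6 was -0.30 over all regions, with a 95% interval of -0.62 to 0.01 (adjusted p = 0.436), and -0.21 without the 2 arrays. Its iP mean was lower by -0.73 in amygdala (0.651) and by -0.69 in cortex (0.85), or -0.15 in cortex without iP 5, while striatum gave 0.00 and hippocampus 0.24. Over all regions Stx1a was 0.00, with a 95% interval of -0.09 to 0.10 (-0.17 by its second probe set, adjusted p = 0.431), and Rab3b -0.04, with -0.15 to 0.06.

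Few genes of the other pathway lists differed between the lines. Over all regions 0 of 15 release machinery genes, 0 of 16 vesicle proteins and 0 of 22 endocytosis genes were called. Of 31 Rab and SNARE partners 1 was, Ykt6, a SNARE of the Golgi and of autophagosomes, which was higher in iP by 0.26 ± 0.06 (adjusted p = 0.039).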

How the data were processed

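Each array was deposited as linear intensity, 1 value per probe set. The labels and headers read here do not say how the authors computed or scaled it. In the values, every array has the same mean, 1000, after trimming 2% from each end, and none was rescaled. Signals under 16 were raised to 16 before taking log2. The 59 control probe sets and the 40% with the lowest mean were left out of 8799, which left 5244. Gene names are those of the array annotation with 1 symbol (7006 probe sets; 308 carry several and 1426 none). All 100 member probe sets matched the GRCr8 gene table by gene ID with no change of symbol, and 2 probe sets naming both Rab1b and Rab1a were left out.

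Tests used limma 3.58.1 in R 4.3.3 on all 5244 probe sets, with empirical Bayes moderation, an intensity trend and Benjamini-Hochberg adjustment, two-sided at 0.05. For the line difference over all regions, the regions of each animal were averaged after removing the region levels (6 against 6 animals). Each region was also fitted alone, and regions were compared with the animal as a fixed block. The animal number in the titles shows which arrays come from the same rat. Arrays carry no read depth, so the number of animals limits precision.

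Members, gene lists and alternatives were chosen with earlier results of these data known. Any member could be named; each gene is represented by its brightest probe set, and others are given where they differ. Of the other lists, up to 3 called genes per comparison could be named. The fit without the 2 arrays and with the Gapdh ratio, and the fit without cortex of iP 5, were chosen after seeing the data. The fits were also run on simulated data with independent noise on each array. Those data held no animal effect and no aberrant array, so they do not test the animal block or the handling of the 2 arrays.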

Additional observations from a re-analysis of the deposited data

Results flagged for a closer look

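Within each group of 5 or 6 arrays, 9 measures (the mean over the member probe sets and 8 genes) were searched for a single array far from the rest of its group. In the 10 groups this made 90 searches, of which 11 found such an array. By chance alone about 1 in 20 independent searches would. The measures were read on the same arrays and are not independent, so the 11 cannot be set against that rate. Cortex of iP 5 accounted for 4 of them: its mean over the members was 9.45 where the other 4 arrays lay between 10.55 and 10.66, its Syt6 signal was 4.81 (others 7.28 to 7.83), its Vamp1 signal 8.85 (others 11.32 to 11.59) and its Stx1a signal, on the high side, 13.75 (others 13.21 to 13.35). Amygdala of iP 1 was low in Rab3b, at 10.74 (others 11.29 to 11.50), and in Rab26, at 10.51 (others 10.99 to 11.22).

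The mean over the members was 10.70 in cortex of iNP 7 (others 10.57 to 10.62), 10.41 in hippocampus of iP 2 (others 10.50 to 10.54) and 10.19 in hippocampus of iNP 10 (others 10.44 to 10.56). Stx1a was 11.48 in cortex of iNP 8 (others 13.25 to 13.51). Syn1 was 11.98 in striatum of iP 6 (others 12.52 to 12.76). In the test of a line difference that varies with region, 0 members passed.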

How the results depend on the processing

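The line difference over all regions gave 0 called member probe sets with all arrays, 2 with array weights (Syn2 and Rab11a), 1 without 2 arrays (Syn2) and 1 with animals 1, 2, 7 and 8 as covariate (Syn2). Leaving out each animal in turn gave between 0 and 3 calls: 3 without animal 1 (Syn2, Cplx2 and Rab14) and 1 without animal 8 (Rab11a). Of all probe sets, 2.65% were called with all arrays and 3.09% without 2 arrays. No such share is given for the other alternatives, so their counts cannot be set against a background. The line differences in single regions and the line by region interaction gave 0 calls under every alternative, including 1 fit of all arrays with the animal as a random replicate block.

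For the regions, leaving out each animal in turn gave 16 to 20 calls in cortex, 8 to 11 in striatum, 16 to 21 in hippocampus, 27 to 34 in amygdala, 19 to 23 in accumbens and 168 to 231 over the 10 pairs of regions (189 with all animals). The pairing of arrays within an animal changed little: with no replicate block the 5 regions gave 18, 10, 19, 29 and 20 calls, against 19, 9, 21, 30 and 20 with it. No share of all probe sets is given for the fits that leave out an animal or the block. Of 99 regional calls on single probe sets, none reversed under any alternative. With 60% of probe sets left out as dim, 83 were still tested and all were kept. Leaving out each animal lost between 1 and 12: 12 without animal 3, 11 without animal 9 and 10 each without animals 10 and 11. Under the other alternatives those lost numbered 8 with no filter on dim probe sets, 8 with arrays centred on the median, 4 with no replicate block, 4 with the Gapdh ratio as covariate, 3 without 2 arrays and 13 without 2 arrays and with the Gapdh ratio as covariate, and at most 3 in any other; the cause was not tested.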
